A study of Rattus norvegicus with 10 samples.

Results

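The genes described are 7 subunits of the GABA-A receptor, the chloride channel opened by gamma-aminobutyric acid: Gabra2, Gabra3, Gabra4, Gabra5, Gabrb1, Gabrb2 and Gabrd, which encode the alpha2, alpha3, alpha4, alpha5, beta1, beta2 and delta subunits. They were taken by gene symbol from a table of read counts in rat brain, and each had a single RNA record, so they were 7 of 16610 distinct named genes. A further 9 subunits of the same receptor and 3 rho subunits were measured beside them. The tissue came from adult male Sprague-Dawley rats, 5 with traumatic brain injury (TBI) by lateral fluid percussion and 5 sham-operated. The injury is a brief pulse of fluid pressure, here 3.32 atm, against the intact dura over the left parietal cortex. Rats of both groups had the craniectomy and the same anaesthetic mixture of sodium pentobarbital, chloral hydrate and magnesium sulphate, and the sham-operated rats did not receive the pulse. Sodium pentobarbital is itself a drug that acts on GABA-A receptors. Under isoflurane, 3 months later, the left hippocampus was removed and a piece with CA3 and dentate gyrus was taken, which the labels call dorsal hippocampus. Each rat gave 1 library, numbered 1 to 5 within its group in the order of the records, and the numbers pair no rats. The comparison asks which transcripts differ between injured and sham-operated rats in a model of acquired epilepsy. The injured rats were not monitored by EEG and showed no seizures on handling. By earlier data that the study cites, only a minority of such rats have epilepsy at this time.

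GABA-A receptors are pentamers that let chloride into the cell, and they carry most of the fast inhibition in the adult brain. A typical receptor combines alpha, beta and gamma or delta subunits. Receptors with a gamma subunit and alpha2 or alpha3 lie largely at synapses, whereas receptors with delta and alpha4 lie outside them and respond to low ambient GABA, giving a tonic current. Dentate granule cells are rich in alpha4 and delta, and alpha5 is a subunit typical of hippocampal pyramidal cells. The beta subunits help to form the GABA binding site and are present in nearly every receptor.

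Rat subunit genes lie in clusters. In the order of coding genes on the RefSeq assembly GRCr8, Gabrb1 was followed by Gabra4, Cox7b2, Gabra2 and Gabrg1. Gabra5 lay beside Gabrg3, Gabrb2 lay beside Gabra6, and Gabra3 and Gabrd had no subunit gene as a direct neighbour. Promoter windows from 250 bases before to 50 bases after the annotated start were held by RefSeq (GRCr8) for 6 of the 7 genes, Gabra2 being the one without an entry. The deposited counts were made on another build, rn4, so these windows show sequence only and carry no measured value. The promoters of Gabra3 and Gabra4 are shown because these genes had the smallest p-values below and are opposites in CpG content. The first is chrX:155543871-155544120 (minus strand) and the second chr14:36944497-36944746 (plus strand), each printed 5′ to 3′ over the 250 bases before the start, with CpG dinucleotides in capitals.

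Gabra3: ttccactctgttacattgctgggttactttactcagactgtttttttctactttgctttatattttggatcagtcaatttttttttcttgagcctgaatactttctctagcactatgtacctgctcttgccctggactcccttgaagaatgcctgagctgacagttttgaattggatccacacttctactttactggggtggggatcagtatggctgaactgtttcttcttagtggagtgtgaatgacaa

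Gabra4: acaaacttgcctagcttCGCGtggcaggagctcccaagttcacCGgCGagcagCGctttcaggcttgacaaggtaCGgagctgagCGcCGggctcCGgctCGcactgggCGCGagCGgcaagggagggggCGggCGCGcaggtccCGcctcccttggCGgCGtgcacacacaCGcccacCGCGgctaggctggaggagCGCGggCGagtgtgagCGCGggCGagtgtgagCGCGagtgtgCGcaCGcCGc

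The printed Gabra3 stretch holds no CpG and the printed Gabra4 stretch holds 33. Over its whole window, Gabra3 had 39.3% G and C and 0 CpG, and 5.47% of all 33469 RefSeq promoters had none. Gabra4 had 70.7% G and C and 35 CpG, and 6.13% of promoters had at least that many. Gabra5 (76.3% G and C, 42 CpG) and Gabrd (73.7%, 40 CpG) were like Gabra4. Gabrb1 held 11 CpG and Gabrb2 held 9, against a median of 7 and a median content of 51.7% G and C.

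The beta promoters share a motif that is not common. Both hold CGCATGCG, the core of the site of nuclear respiratory factor 1 (NRF1), which reads alike on both strands and was found in 1.66% of promoters. It is shown in capitals in 30 bases of each, at chr14:36902903-36902932 (minus strand) for Gabrb1 and chr10:27439688-27439717 (plus strand) for Gabrb2, where it begins 28 and 94 bases before the start.

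Gabrb1: agtacactctgCGCATGCGcaggtccattc

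Gabrb2: ggtacgccgtgCGCATGCGctccacattag

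Other motifs were searched on both strands. The GC box GGGCGG, in 33.1% of promoters, occurred 4 times in the Gabrd window and once each in those of Gabra4 and Gabra5. TATAAA (14.2%) was found in Gabra3, and CCAAT (37.5%) in Gabra3 and Gabrb1. The cAMP response element TGACGTCA (1.83%) and the EGR site GCGTGGGCG (0.544%) were in none of the 6. These are matches of letters in a window, and binding was not measured.

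The libraries held 23425817 to 31671838 counts over RNA records. Sham replicates 4 and 5 stood apart, with 59.0% and 58.5% of their counts on ribosomal RNA against 12.5% to 26.2% in the other libraries. Its mean share was 38.7% in sham rats and 19.7% in TBI rats (two-sided exact permutation test over 252 splits, p = 0.0238). Values below are CPM, a gene's counts relative to its library's total after scaling by the trimmed mean of M-values (TMM), and the scaling factors were 0.464 and 0.523 in those 2 sham libraries and 1.07 to 1.37 elsewhere. Markers of both regions named for the dissected piece were present. In sham rats Prox1 of granule cells had a mean of 27.8 CPM and Grik4 of CA3 pyramidal cells one of 127 CPM. In tissue of many cell types, fewer cells of a type and less RNA per cell cannot be told apart.

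None of the 7 subunits passed the adjusted threshold of 0.05, and none of the 22431 rows tested did (0% of rows, smallest adjusted p 0.477 by edgeR's quasi-likelihood test with Benjamini-Hochberg adjustment). By the unadjusted test 1769 rows (7.89%) had a p under 0.05, and DESeq2 called 3 rows after adjustment. All 7 subunits had a lower fitted level in TBI rats, with a median log2 difference (TBI minus sham) of -0.20 beside -0.01 over all rows, of which 52.2% were below 0. Gabra2, Gabra3 and Gabra4 had an unadjusted p under 0.05, all in the lower direction, where 3.00% of all rows were called. None was called in the higher direction, where 4.89% of rows were. In none of the 7 did sham and TBI rats separate without overlap, as 0.923% of rows did. These directions depend on the scaling: with total counts alone all 7 differences were above 0, though below the median of all rows, which was then 0.50. With counts scaled outside ribosomal RNA, Gabra5 was also above 0.

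**Figure D1:**
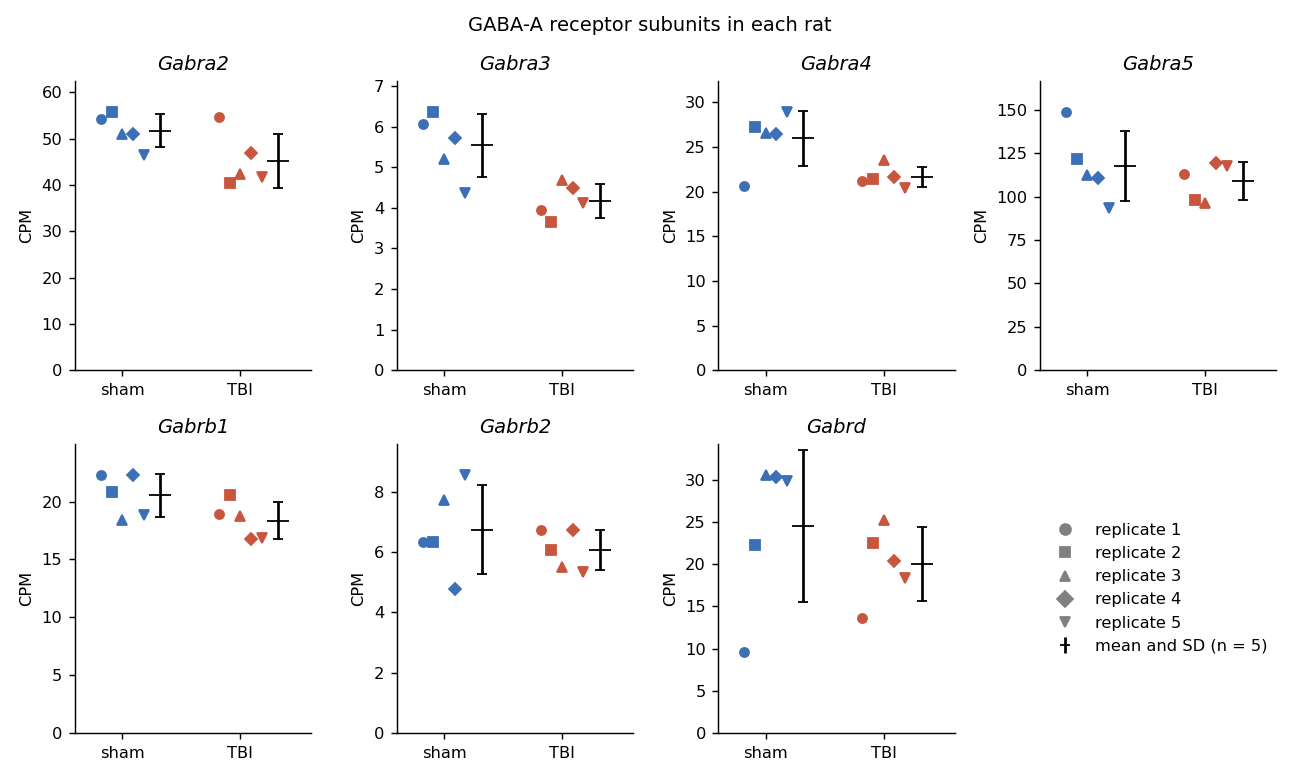
Level of each of the 7 subunits in every rat, in TMM-scaled CPM on a linear axis from 0, with one panel per gene; points are single rats and bars the group means with the SD. The sham and TBI points overlap in every panel, and sham replicate 1 is the lowest Gabrd point at 9.61 CPM.

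Among the alpha subunits, Gabra3 had the largest difference. The alpha3 subunit belongs to synaptic receptors and is sparse in the adult hippocampus. Its level in sham replicates 1 to 5 was 6.06, 6.36, 5.20, 5.71 and 4.37 CPM, and in TBI replicates 1 to 5 it was 3.94, 3.65, 4.69, 4.49 and 4.12 CPM. The groups overlapped only through sham replicate 5, which lay below TBI replicates 3 and 4, so the TBI rat was the higher one in 2 of 25 pairs. The group means were 5.54 ± 0.782 and 4.18 ± 0.420 CPM (SD, n = 5 each). The fitted level was 25.1% lower in TBI rats, a log2 difference of -0.42 (SE 0.122, 95% interval -0.67 to -0.16). By edgeR the unadjusted p was 0.00288 and the adjusted p 0.483. The gene rested on few reads, 70 to 194 per library, so counting alone gave an error of 9.09% in sham rats beside an SD of 14.1%. It kept an unadjusted p under 0.05 in all 10 fits that left out 1 rat, with p from 0.000709 to 0.0121. Leaving out sham replicates 4 and 5 gave a log2 difference of -0.49 (edgeR unadjusted p = 0.00197), and scaling to counts outside ribosomal RNA gave -0.28 (edgeR unadjusted p = 0.0904).

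Gabra4 encodes the alpha4 subunit, the usual partner of delta. Sham replicates 1 to 5 had 20.7, 27.2, 26.5, 26.5 and 28.9 CPM, and TBI replicates 1 to 5 had 21.2, 21.4, 23.5, 21.6 and 20.4 CPM. Apart from sham replicate 1, every sham rat lay above every TBI rat. The means were 26.0 ± 3.12 and 21.6 ± 1.14 CPM (SD, n = 5 each). The level was 16.5% lower in TBI rats, with a log2 difference of -0.26 (SE 0.0892, edgeR unadjusted p = 0.00882, adjusted p = 0.492). Without sham replicate 1 the log2 difference was -0.34 (unadjusted p = 0.000374, adjusted p = 0.421). With the share of ribosomal RNA as a covariate it was -0.18 (unadjusted p = 0.133), and without sham replicates 4 and 5 it was -0.19 (unadjusted p = 0.0816). Scaled to counts outside ribosomal RNA it was -0.11 (unadjusted p = 0.404).

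Gabra2, the alpha2 subunit of synaptic receptors on principal cells, had 54.1, 55.7, 51.1, 51.1 and 46.5 CPM in sham replicates 1 to 5. In TBI replicates 1 to 5 it had 54.7, 40.5, 42.3, 46.8 and 41.7 CPM. TBI replicate 1 stood with the sham rats, and TBI replicate 4 was just above the lowest of them. The means were 51.7 ± 3.54 and 45.2 ± 5.80 CPM (SD, n = 5 each). The log2 difference was -0.20 (SE 0.0880), 12.7% lower in TBI rats, with an unadjusted p of 0.0390 and an adjusted p of 0.620 by edgeR. It kept an unadjusted p under 0.05 in 3 of the 10 fits without 1 rat, those without sham replicate 5, TBI replicate 1 or TBI replicate 4. Scaled to counts outside ribosomal RNA the log2 difference was -0.05 (unadjusted p = 0.720), and with the ribosomal share as a covariate -0.22 (unadjusted p = 0.0639).

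Gabra5, the subunit typical of pyramidal cells, did not pass at either level. Its values were 148.9, 121.6, 112.4, 111.1 and 93.7 CPM in sham replicates 1 to 5 and 113.3, 98.2, 96.3, 119.2 and 117.9 CPM in TBI replicates 1 to 5. The sham rats alone spanned more than the TBI rats did, from the highest value of all to the lowest. The log2 difference was -0.11 (95% interval -0.33 to 0.11, edgeR unadjusted p = 0.308), and it moved with single libraries. Without sham replicate 1 it was -0.01, without TBI replicate 3 it was -0.07, without sham replicate 5 it was -0.19 and without sham replicates 4 and 5 it was -0.22 (unadjusted p = 0.0600). With the share of ribosomal RNA as a covariate it was -0.26 (unadjusted p = 0.0513).

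Neither beta subunit passed at either level. Gabrb1 had 22.3, 20.8, 18.4, 22.3 and 18.8 CPM in sham replicates 1 to 5 and 18.9, 20.6, 18.7, 16.7 and 16.8 CPM in TBI replicates 1 to 5. TBI replicates 4 and 5 were lower than every sham rat, and the other 3 lay within the sham range. The log2 difference was -0.16 (95% interval -0.35 to 0.03, edgeR unadjusted p = 0.0869), and the unadjusted p was 0.0461 without sham replicate 3 and 0.0401 without TBI replicate 2. Gabrb2, counted at 70 to 238 reads per library, had 6.34, 6.32, 7.73, 4.76 and 8.56 CPM in sham rats. In TBI replicates 1 to 5 it had 6.73, 6.07, 5.49, 6.74 and 5.34 CPM, all inside the sham range. Its log2 difference was -0.16 (95% interval -0.44 to 0.12, unadjusted p = 0.257). Without sham replicate 4 it was -0.25 (unadjusted p = 0.0614), without sham replicate 5 it was -0.07 and without sham replicate 3 it was -0.10. Scaled to counts outside ribosomal RNA, the differences were -0.0046 for Gabrb1 and -0.01 for Gabrb2.

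Gabrd, the delta subunit of tonic receptors, varied most between sham rats. Sham replicates 1 to 5 had 9.61, 22.3, 30.6, 30.3 and 29.9 CPM, and TBI replicates 1 to 5 had 13.6, 22.5, 25.3, 20.4 and 18.4 CPM. Sham replicates 3, 4 and 5 were above every TBI rat, sham replicate 2 lay among them, and sham replicate 1 was below them all. The SD was 36.8% of the mean in sham rats, whereas counting gave 4.46%. The log2 difference was -0.28 (95% interval -0.99 to 0.43, edgeR unadjusted p = 0.390), and without sham replicate 1 it was -0.50 (unadjusted p = 0.00570, adjusted p = 0.483). It was -0.18 without sham replicate 3, -0.17 without TBI replicate 1 and -0.05 without sham replicates 4 and 5. With the share of ribosomal RNA as a covariate it was -0.02 (unadjusted p = 0.964).

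Of 7 tested markers of dentate granule cells, 5 were lowest in the same rat as Gabrd. Il16 was not, at 47.8 CPM there within a range of 41.6 to 48.3 CPM, and Pdzd2 was at 14.1 CPM there and lowest in TBI replicate 5 at 11.9 CPM. Of 9 markers listed, 7 were tested, and Tdo2 had 6 counts over all libraries. Of the 7 tested, 6 lay below 0 and 1 above, with a median log2 difference of -0.25, and none had an unadjusted p under 0.05. Their summed level was 129 CPM in sham replicate 1 and 263 to 318 CPM in the other sham rats, and 160 to 298 CPM in TBI rats. Prox1, the transcription factor that marks granule cells, was at 9.55 CPM in sham replicate 1 and 25.7 to 41.4 CPM in the other sham rats. With the marker score, the mean centred log2 CPM of the 7 markers, as a covariate, the Gabrd log2 difference was -0.11 (edgeR unadjusted p = 0.503) and that of Gabra4 was -0.23 (unadjusted p = 0.00409). The score is made of RNA levels in the same libraries and does not count cells. The part of granule cell content in these differences was not tested.

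**Figure D2:**
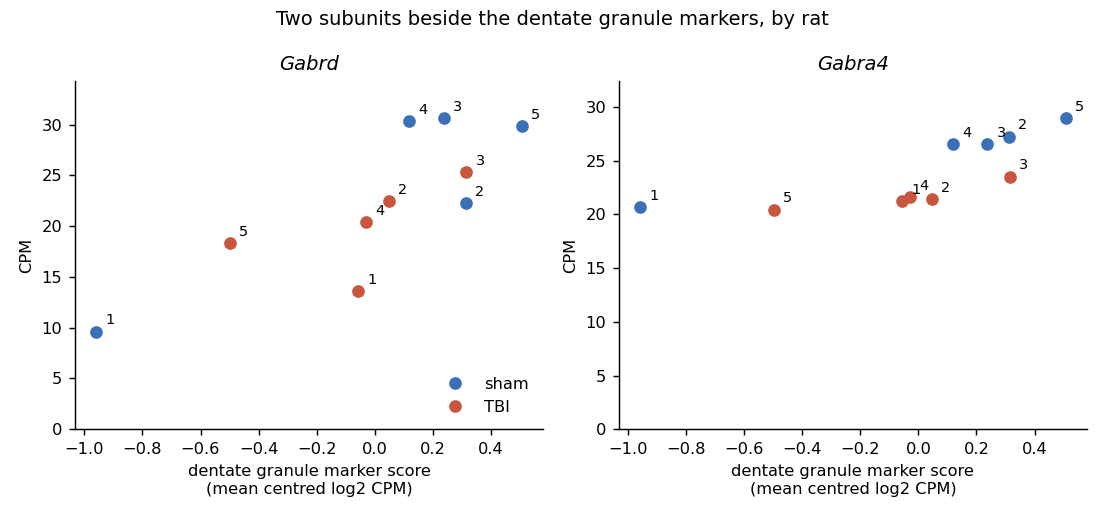
Level of Gabra4 and Gabrd in CPM (vertical axes, from 0) against the dentate granule marker score (horizontal axis, mean centred log2 CPM of 7 markers), one point per rat with its replicate number. Sham replicate 1, at a score of -0.96 and 9.61 CPM, has the lowest Gabrd level and the lowest score of all 10 rats.

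**Figure D3:**
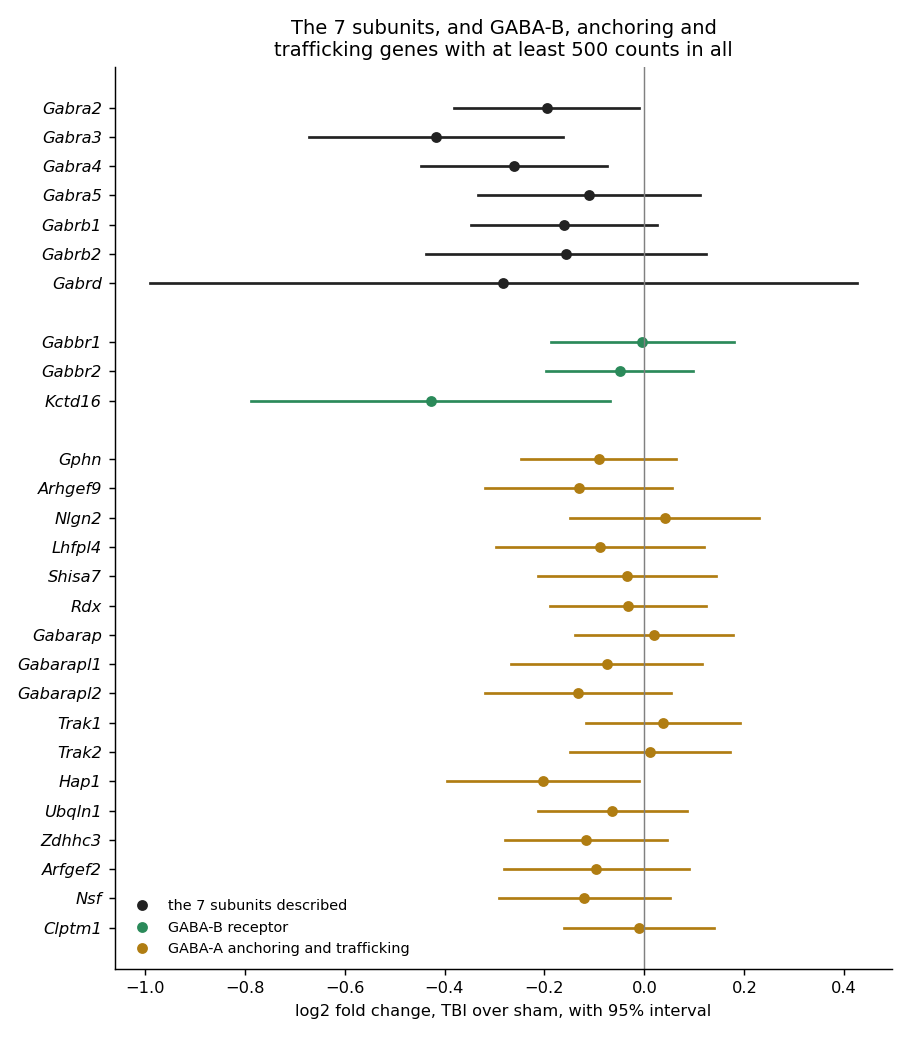
Log2 difference (TBI minus sham, edgeR fit) with its 95% interval for the 7 subunits and for the listed GABA-B, anchoring and trafficking genes with at least 500 counts over all libraries. The intervals of Gabra2, Gabra3 and Gabra4 lie below 0, and that of Gabrd runs from -0.99 to 0.43.

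Across the rest of the receptor family, 34 genes were listed: 9 further GABA-A subunits, 3 rho subunits, 5 genes of the GABA-B receptor and 17 of anchoring and trafficking. Of these, 33 had a row and 30 were tested. None passed after adjustment, 4 had an unadjusted p under 0.05 in the lower direction (3.00% of all rows did) and none in the higher (4.89% of all rows). Of the 30, 23 lay below 0 and 7 above, where 52.2% of all rows lay below 0, and their median log2 difference was -0.09. Kctd16, an auxiliary subunit of GABA-B receptors, had a log2 difference of -0.43 (edgeR unadjusted p = 0.0222, adjusted p = 0.563). Hap1, which takes part in carrying receptors to the membrane, had 2 rows. The row with the higher mean count had a log2 difference of -0.20 (edgeR unadjusted p = 0.0401, adjusted p = 0.620). With counts summed per symbol, 3 of these receptor genes had an unadjusted p under 0.05. Gabrg1, the gamma1 subunit, was at 0.09. Gabbr1 and Gabbr2, the subunits of the GABA-B receptor, were at -0.004 and -0.05, and the scaffold gene Gphn at -0.09 and Nlgn2 at 0.04. Gabra6, Gabrp and Gabrq fell under the filter with 22, 31 and 14 counts in all.

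Summed over the 13 tested GABA-A subunits, the level was 411, 415, 402, 389 and 394 CPM in sham replicates 1 to 5 and 378, 347, 350, 367 and 348 CPM in TBI replicates 1 to 5. The groups did not overlap on this scale. In CPM of the counts outside ribosomal RNA, the sums were 596, 646, 611, 441 and 497 in sham rats and 599.7, 540.1, 532, 544 and 543 in TBI rats, and they overlapped, with sham replicates 4 and 5 lowest. Summed over the 7 described subunits alone, the TMM-scaled level was 231 to 268 CPM in sham rats and 213 to 236 CPM in TBI rats. These groups overlapped, with sham replicate 5 below TBI replicates 1 and 4. No test was made of either sum. Within the receptor, Gabra3 made up 1.38% ± 0.173 of the counts of all 16 subunits in sham rats and 1.17% ± 0.125 in TBI rats (SD, n = 5 each), and Gabra4 6.47% ± 0.859 and 6.05% ± 0.420. The share of Gabra5 was 29.2% ± 4.49 in sham and 30.4% ± 2.71 in TBI rats. These are shares of reads and not of molecules, since transcript lengths were not used.

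**Figure D4:**
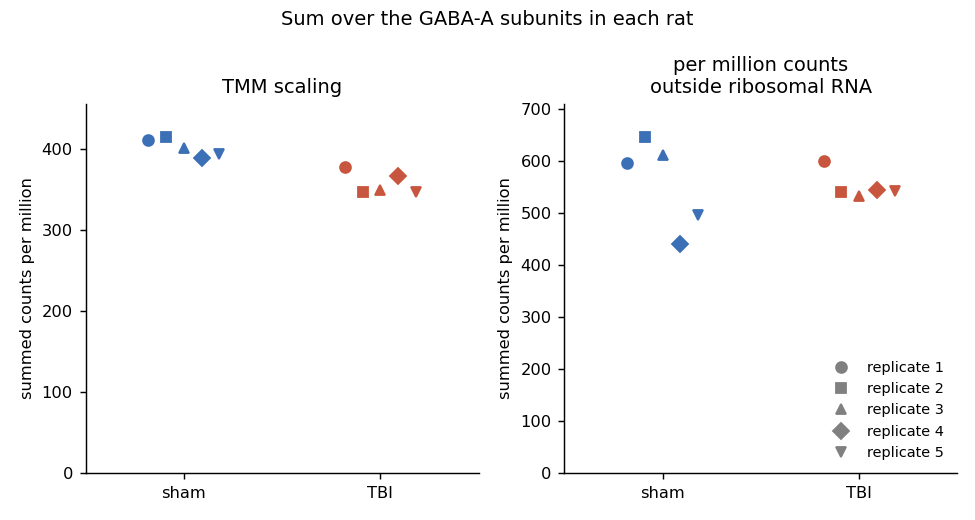
Summed level of the 13 tested GABA-A subunits in each rat on 2 scales, TMM-scaled CPM and CPM of the counts outside ribosomal RNA, with vertical axes from 0. On the first scale the TBI rats (347 to 378) lie below the sham rats (389 to 415), and on the second the groups overlap.

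Of 13 markers of GABA-releasing cells, none passed after adjustment, and 6 had an unadjusted p under 0.05 in the lower direction, where 3.00% of all rows did. One of the 13, Cck, lay above 0 at a log2 difference of 0.21. Reln, which encodes reelin and is made by many interneurons, was at 28.2 ± 2.93 CPM in sham and 18.7 ± 4.50 CPM in TBI rats (SD, n = 5 each), without overlap. The study lists Reln as downregulated in its own TBI comparison, for which its methods give fewer control rats. The markers' summed level was 512 to 695 CPM in sham rats and 430 to 553 CPM in TBI rats. Of 9 general neuron markers 8 lay below 0 and 1 above, with a median log2 difference of -0.07, and none had an unadjusted p under 0.05. CA1 pyramidal markers, of a region not named for the dissected piece, had higher fitted levels in TBI rats in 6 of 6 tested. Of these, 3 had an unadjusted p under 0.05 (4.89% of all rows in that direction). The 6 summed to 72.3 to 153 CPM in sham and 55.9 to 510 CPM in TBI rats. Of 8 astrocyte markers 5 lay above 0 and 3 below, with 2 at an unadjusted p under 0.05, both higher. Their sum was 2423 to 3224 CPM in sham and 2652 to 4030 CPM in TBI rats. Gfap had the highest mean of the 8, at 1016 ± 346 and 1801 ± 523 CPM (SD, n = 5 each). Aldoc came next, at means of 779 CPM in sham and 755 CPM in TBI rats. Of 8 microglia markers 7 lay above 0, 3 of them with an unadjusted p under 0.05. The part of these marker levels in the subunit differences was not tested.

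Genes most like Gabra3 and Gabrd across the 10 rats were found among named genes of at least 10 CPM, as a description. For Gabra3, 6598 candidates were ranked, and Mas1 (Pearson's r 0.95), Slitrk1 (0.93), Impact (0.93), Enpp5 (0.92) and Gdap2 (0.92) came first. For Gabrd, among 6597, they were Tle1 (0.96), Stk32c (0.94), Kcnj4 (0.94), Perp (0.92) and Gpc4 (0.91). Without the 2 rats farthest from the median of the subunit, r was 0.84 to 0.91 for the Gabra3 genes and 0.74 to 0.86 for the Gabrd genes. The genes had been picked for a high r over the same rats, so these values are not a separate check. Both genes of a pair were read from the same libraries, so differences between rats in depth and tissue makeup enter both.

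**Figure D5:**
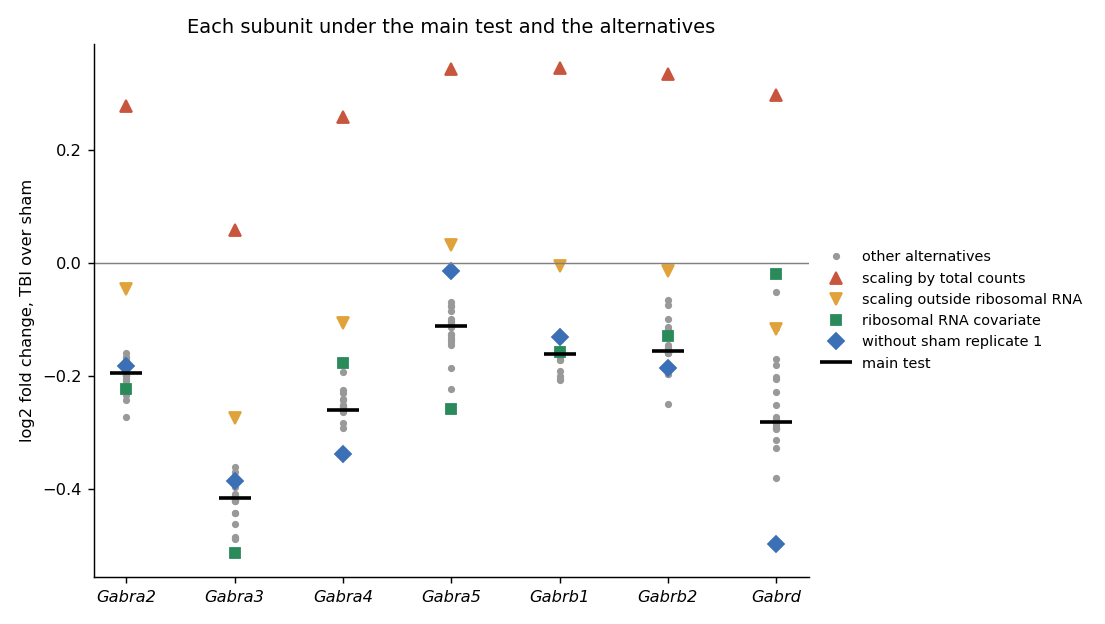
Log2 difference (TBI minus sham) of each of the 7 subunits under the main fit and the 25 alternative settings. Scaling by total counts places all 7 above 0, from 0.059 for Gabra3 to 0.35 for Gabrb1, and every other setting places Gabra3 and Gabra4 below 0.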

How the data were processed

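Poly-A RNA of each rat was read as single reads of 36 bases. The authors aligned them with BWA to rn4 and deposited raw counts per RefSeq RNA record, with no normalization or pooling. The study's methods count over Ensembl transcripts and give 3 control rats, whereas the labels and the table hold 5; all were used. The table held 32041 RNA records, besides an empty entry and unmapped reads (median 22.2% of reads), which were left out. Symbols came from RefSeq and matched 54.2% of records. Treatment of multiply mapping reads and of strand was not given in the sources used here. Libraries were compared in 45 pairs, and none agreed within sampling noise.

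Rows with at least 44 counts in all, the 30th percentile, were kept. TBI and sham rats were compared with edgeR 4.0.16 (R 4.3.3) by TMM scaling and the robust quasi-likelihood F test, with Benjamini-Hochberg adjustment over 22431 rows. DESeq2 1.42.0 and limma 3.58.1 were among 25 alternatives, of which 2 were chosen after seeing the data. Log2 CPM used a prior count of 2. The members, lists and tests were chosen with earlier results of these data known. Named were all 7 members, the listed receptor genes (some are not reported here), the 5 genes most correlated with the member of smallest p and with Gabrd, and markers of cell types that move with a member. The tests take the rat as the unit, and each rat was processed individually. Among listed genes, Kctd12, Dsp, Cdh24, Tcf7l2 and Rora had no matching row.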

Additional observations from a re-analysis of the deposited data

Results flagged for a closer look

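The dentate granule marker score of sham replicate 1 was -0.96, and the other 4 sham rats lay between 0.12 and 0.51. Its gap to the next rat, divided by the range of the group, was 0.736. That is just above Dixon's 95% critical value of 0.71 for a group of 5. The group was 1 of 20 examined, and chance gives about 1. The same rat had the lowest Gabrd level, 9.61 CPM, and the lowest sham value of Gabra4, 20.7 CPM.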

How the results depend on the processing

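Over 25 alternatives, Gabra3 kept an unadjusted p under 0.05 in 23, Gabra4 in 21, Gabra2 in 14, Gabrb1 in 2, Gabrd in 1, and Gabra5 and Gabrb2 in none. No subunit or listed receptor gene passed after adjustment under any of them. With total-count scaling, which moved the median of all rows to 0.50, the log2 differences were 0.28 (Gabra2), 0.059 (Gabra3), 0.26 (Gabra4), 0.34 (Gabra5), 0.35 (Gabrb1), 0.34 (Gabrb2) and 0.30 (Gabrd). With scaling outside ribosomal RNA, where that median was 0.14, Gabra5 was at 0.032. The cause was not tested. Rows past the adjusted threshold numbered 92 with total-count scaling, 3 with DESeq2 and 319 without both rats numbered 3 (chosen after seeing the data). Leaving out 1 rat gave 0 to 12, the highest without TBI replicate 3, and 5 without sham replicate 3.

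Rows with an unadjusted p under 0.05, 1769 in the report, were 3788 when scaled by totals, 2902 when scaled to non-ribosomal counts and 992 with the ribosomal share as covariate, and 1162 to 2571 when 1 rat was left out, lowest without sham replicate 2 and highest without sham replicate 3. Subunits with such a p, 3 in the report, were 0 under either of these scalings and 1 with the covariate, and 2 to 3 without 1 rat, with 2 without sham replicate 2 or 4 or TBI replicate 3 or 5. Other receptor genes, 4 in the report, were 2 when scaled by totals, 0 when scaled to non-ribosomal counts, 2 with the covariate and 2 without sham replicates 4 and 5. Leaving out 1 rat gave 1 to 5, with 1 without sham replicate 2 or TBI replicate 5 and 2 without sham replicate 5. No paired analysis was possible because the labels give no replicate numbers that pair rats. Depth limits Gabra3 and Gabrb2, with as few as 70 reads in a library.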

Other observations

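Other markers of GABA-releasing cells also had an unadjusted p under 0.05 by edgeR, and none passed after adjustment. Gad1, a GABA-synthesising enzyme, was at 82.3 ± 9.06 CPM in sham and 59.6 ± 9.49 CPM in TBI rats (SD, n = 5 each). Gad2, the second such enzyme, was 27.1% lower in TBI rats, without overlap between groups. Both Gad1 and Gad2 are listed by the study as downregulated in its own TBI comparison, for which its methods give fewer control rats.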
